A study of Mus musculus with 29 samples.

Results

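The liver transcriptome of obese male C57BL/6J mice kept on high-fat diet and fasted every other day (HFD-IF) was compared with that of mice given the same diet without restriction (HFD). The comparison used every liver library of both groups that was analysed here, 4 for HFD and 2 for HFD-IF, among 29 libraries of the series. Genes entered when their mean over these 6 livers was at least 1 FPKM (fragments scaled to transcript length and to the mapped fragments of a library) and when they were not small RNA genes named Snora, Snord or Mir, which left 11482 of 24346 rows. All mice had first eaten high-fat diet for 10 weeks, and the regimens then ran for 4 weeks. The groups used for contrast were mice moved to control chow (CC) and mice moved to chow with intermittent fasting (CC-IF), with 4 livers each. The labels call every animal male and C57BL/6J and name no transgene or drug, and give neither the age of the mice nor whether a liver was taken after a fasting or a feeding day. Samples within a regimen are biological replicates according to the series design. Unless another fit is named, p-values rest on a spread per gene pooled over all 14 liver libraries. They do not measure how far the 2 HFD-IF livers alone vary. Columns of the deposited table count libraries from 0 and the sample titles from 1, so a library is named here by its regimen and column index.

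The liver stores and exports fuel, and its genes follow food intake closely. After a meal, insulin activates the transcription factor SREBP-1c, which drives fatty acid synthesis, and the related factor SREBP-2 drives cholesterol synthesis and uptake when sterols in the endoplasmic reticulum run low. During a fast, fatty acids from fat tissue enter the liver, the receptor PPARα activates genes of their oxidation, and the liver releases ketone bodies and glucose. Protein folding in the endoplasmic reticulum, amino acid breakdown and clock genes also move with feeding. The title of the series names succinate, a citric acid cycle intermediate that signals through the receptor Sucnr1, so genes of that cycle are included below.

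The 2 HFD-IF livers stood apart from each other. On the log2(FPKM + 1) scale their values differed more than 2-fold in 1035 genes (Pearson's r = 0.9401 across genes, which are not independent replicates). Pairs of HFD livers differed that far in 128 to 351 genes, pairs of CC livers in 96 to 225 and pairs of CC-IF livers in 128 to 267. Relative depth, a ratio of fragments per library read from the steps of low FPKM values and set to 1 for HFD library 0, was 1 to 1.21 in HFD, 1.25 in HFD-IF library 0 and 1.71 in HFD-IF library 1, the deepest of the 14 liver libraries. Both HFD-IF livers are therefore given separately, by FPKM or by log2 difference, for nearly all genes named. The summed FPKM of hepatocyte markers other than albumin was 32902 to 36142 in HFD, 34187 in HFD-IF library 0 and 20689 in HFD-IF library 1, the lowest of the 14. All 6 libraries thus carried the liver's own markers. Albumin itself was listed at 0 in HFD library 3 and between 29215 and 43965 FPKM in the other 5 livers. It was 1 of 8 genes with a median of at least 20 FPKM that were listed at 0 in at least 1 of the 6 livers, so an exact 0 is not read as absence.

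With intermittent fasting on high-fat diet, 44 genes rose and 123 fell in liver (limma, adjusted p at most 0.05). These 167 genes are 1.45% of the 11482 tested, with 0.383% higher and 1.07% lower. Of them, 16 rose and 59 fell by 2-fold or more on the log2(FPKM + 1) scale, which understates changes of low genes. Both HFD-IF livers lay outside the range of the 4 HFD livers in 22.2% of all genes tested, above it in 9.41% and below it in 12.8%. All 167 called genes were among these. At an unadjusted p under 0.05, 7.82% of all genes were higher and 10.1% lower, the background for such counts in the lists below. The count rested on which HFD-IF liver was fitted, with 10 genes called without HFD-IF library 1 and 1703 without HFD-IF library 0, in fits that take the spread of the remaining lone liver from the other groups. A fit of these 6 livers alone called 12 genes, and a fit that weighted libraries by their scatter called 0 and had 802 at an unadjusted p under 0.05.

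The cholesterol genes, of synthesis and uptake, were lower in nearly every case. Of 25 members, 21 fell and 0 rose, all 25 had a lower mean in HFD-IF, and 22 lay below every HFD liver in both fasted livers. The median log2 difference was -1.82, with -1.43 in HFD-IF library 0 and -2.18 in library 1, beside -0.01 for all genes tested. The promoters of the 4 called members with the smallest p among those with a window are shown first, since these genes moved together. They are RefSeq windows on GRCm38.p6, from 250 bases before the start of transcription to 50 after it. Capitals mark the box CCAAT, also read as ATTGG on the other strand, and TCACNCCAC, the core of a sterol regulatory element.
Nsdhl, a sterol dehydrogenase (chrX:72918271-72918570, + strand): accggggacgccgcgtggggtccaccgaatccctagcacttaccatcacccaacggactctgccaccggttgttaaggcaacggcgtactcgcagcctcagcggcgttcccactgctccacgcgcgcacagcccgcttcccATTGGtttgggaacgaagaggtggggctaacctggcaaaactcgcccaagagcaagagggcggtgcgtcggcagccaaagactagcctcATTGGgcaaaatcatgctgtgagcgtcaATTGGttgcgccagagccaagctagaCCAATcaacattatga
Hmgcs1, which makes the precursor of mevalonate (chr13:119690101-119690400, + strand): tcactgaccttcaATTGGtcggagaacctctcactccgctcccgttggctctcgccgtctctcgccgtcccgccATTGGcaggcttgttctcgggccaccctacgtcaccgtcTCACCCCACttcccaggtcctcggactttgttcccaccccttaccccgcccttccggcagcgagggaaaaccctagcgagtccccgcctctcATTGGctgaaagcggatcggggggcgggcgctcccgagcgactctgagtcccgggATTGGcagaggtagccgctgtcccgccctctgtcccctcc
Pmvk, a kinase of the mevalonate pathway (1 of 2 windows, chr3:89454291-89454590, + strand): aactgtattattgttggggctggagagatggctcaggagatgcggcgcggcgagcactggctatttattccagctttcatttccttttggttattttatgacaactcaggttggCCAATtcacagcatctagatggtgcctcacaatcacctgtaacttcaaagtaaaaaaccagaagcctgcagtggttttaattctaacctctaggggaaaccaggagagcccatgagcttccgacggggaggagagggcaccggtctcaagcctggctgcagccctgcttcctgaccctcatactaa
Dhcr7, which makes cholesterol in the last step (1 of 3 windows, chr7:143822917-143823216, + strand): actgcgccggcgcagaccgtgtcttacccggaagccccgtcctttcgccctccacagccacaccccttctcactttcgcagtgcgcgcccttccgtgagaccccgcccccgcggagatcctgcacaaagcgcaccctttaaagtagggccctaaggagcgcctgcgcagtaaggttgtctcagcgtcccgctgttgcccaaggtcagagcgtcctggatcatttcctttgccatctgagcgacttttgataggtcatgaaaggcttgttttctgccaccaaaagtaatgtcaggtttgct
Windows were found for 17 of the 25 members, 20 windows in all. Fdps, Fdft1, Sqle and Stard4 are named only. CCAAT, searched on both strands, was in 16 of the 20 windows (80%) and in 37.4% of 32851 promoter windows of the same length. TCACNCCAC was in the Hmgcs1 window alone (5%) and in 1.24% of all windows, and the E-box CACGTG was in 4 of 20 (20%) and in 7.15% of all. The searched motifs do not overlap in the 4 windows shown, and a match describes letters only.

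Sqle, the squalene epoxidase that commits the pathway to sterols (chr15:59315077-59331192, + strand, GRCm38), measured 19.5, 35.3, 43.2 and 25.8 FPKM in HFD libraries 0 to 3. It measured 2.17 in HFD-IF library 0 and 0.905 in library 1. Both fasted livers were far below all 4 HFD livers, and the log2 difference was -3.64 ± 0.39 (SE; adjusted p = 0.00398). Fdps, which makes farnesyl pyrophosphate, measured 183, 234, 437 and 287 FPKM in HFD, 38.1 in HFD-IF library 0 and 11.5 in library 1. Every HFD liver was above both fasted livers, with a log2 difference of -3.62 ± 0.52 (adjusted p = 0.00906). Hmgcs1 (chr13:119690379-119708260, + strand) measured 178, 173, 273 and 232 FPKM in HFD, 62.3 in HFD-IF library 0 and 28.8 in library 1. The groups did not overlap, library 1 was the lower of the fasted pair, and the log2 difference was -2.28 ± 0.32 (adjusted p = 0.00856). Dhcr7 measured 45.3, 49.0, 62.9 and 56.0 FPKM in HFD, 6.49 in HFD-IF library 0 and 8.95 in library 1, and here library 0 was the lower. Its log2 difference was -2.64 ± 0.35 (adjusted p = 0.00654).

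Nsdhl measured 26.2, 27.5, 50.6 and 37.4 FPKM in HFD, 5.61 in HFD-IF library 0 and 3.23 in library 1. Idi1, an isomerase of the isoprene unit, measured 58.1, 88.2, 123 and 83.5 FPKM in HFD, 14.3 in HFD-IF library 0 and 2.92 in library 1. Pmvk measured 48.4, 45.9, 81.6 and 63.6 FPKM in HFD, 14.2 in HFD-IF library 0 and 13.2 in library 1. For all 3 genes the lowest HFD liver was above both fasted livers, and the log2 differences were -2.73 ± 0.35 (adjusted p = 0.00531), -3.48 ± 0.51 (adjusted p = 0.00906) and -2.01 ± 0.29 (adjusted p = 0.00906).

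Regulators of the pathway moved with the enzymes. Insig1, which holds SREBP factors in the endoplasmic reticulum, measured 237, 208, 295 and 292 FPKM in HFD, 94.1 in HFD-IF library 0 and 38.8 in library 1. Srebf2, which encodes SREBP-2, measured 22.7, 25.5, 27.1 and 22.8 FPKM in HFD, 15.7 in HFD-IF library 0 and 10.9 in library 1. Library 1 was the lowest liver for both, and the log2 differences were -2.06 ± 0.34 (adjusted p = 0.0145) for Insig1 and -0.86 ± 0.14 (adjusted p = 0.0145) for Srebf2.

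Of the 4 members that did not pass, 3 were Fdft1, Tm7sf2 and Stard4, named here after their values were seen. Fdft1, the squalene synthase, had both fasted livers below all HFD livers but adjusted p = 0.0653. For Tm7sf2, a sterol reductase, and Stard4, a sterol carrier, library 0 lay within the HFD range at 63.2 and 34.7 FPKM. Library 1 lay below it at 17.6 and 6.34 FPKM. Most of the calls were lost without HFD-IF library 1, where the list median was -1.43, Sqle was at -3.27 and Dhcr7 at -2.85. Without HFD-IF library 0 the list median was -2.18, and both medians are by arithmetic those of the liver that remained. Calls numbered 5 in a fit of the 6 livers alone, 0 with weighted libraries, and 16 to 21 with 1 HFD liver left out.

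In fatty acid and triglyceride synthesis, of 25 members, 7 fell and 0 rose, 23 had a lower mean in HFD-IF and 16 lay below every HFD liver in both fasted livers. The median log2 difference was -1.17, with -0.93 in library 0 and -1.25 in library 1. Thrsp, a nuclear protein that promotes lipogenesis, measured 357, 222, 265 and 545 FPKM in HFD, 34.5 in HFD-IF library 0 and 8.74 in library 1. This was the largest fall among the called genes, with a log2 difference of -4.14 ± 0.75 (adjusted p = 0.0185), and library 1 was well below library 0. Fasn, the fatty acid synthase (chr11:120805846-120824547, - strand, GRCm38), measured 222, 115, 222 and 382 FPKM in HFD, 25.4 in HFD-IF library 0 and 18.9 in library 1. HFD livers varied among themselves but all stood above both fasted livers, and the log2 difference was -3.24 ± 0.58 (adjusted p = 0.0185).

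Acetyl-CoA supply and its carboxylation showed the same direction. Acly, the citrate lyase, measured 147, 115, 176 and 258 FPKM in HFD, 36.2 in HFD-IF library 0 and 37.0 in library 1. Acss2, which makes acetyl-CoA from acetate, measured 78.1, 61.5, 148 and 133 FPKM in HFD, 27.7 in HFD-IF library 0 and 16.1 in library 1. Acacb, an acetyl-CoA carboxylase whose product inhibits fatty acid entry into mitochondria, measured 24.4, 20.1, 44.8 and 51.6 FPKM in HFD, 6.96 in HFD-IF library 0 and 5.09 in library 1. The groups did not overlap for any of these 3, and the log2 differences were -2.15 ± 0.47 (adjusted p = 0.0416), -2.17 ± 0.42 (adjusted p = 0.0238) and -2.28 ± 0.43 (adjusted p = 0.0216). Slc25a1, the mitochondrial citrate carrier, and Gpam, which starts triglyceride assembly, also fell, with log2 differences of -0.86 ± 0.17 (adjusted p = 0.0235) and -1.17 ± 0.23 (adjusted p = 0.0237). Slc25a1 was at -0.5726 in library 0 and -1.145 in library 1, and Gpam at -1.159 and -1.177. Acly is named here after its values were seen.

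Srebf1 and Scd1 did not pass. Srebf1, which encodes SREBP-1c and its longer form, measured 156, 79.8, 78.6 and 146 FPKM in HFD, 56.9 in HFD-IF library 0 and 38.7 in library 1. Both fasted livers were below all HFD livers, which split into a higher and a lower pair, and the log2 difference was -1.20 ± 0.42 (adjusted p = 0.169). Scd1, which makes oleate from stearate, measured 2437, 1483, 4704 and 6058 FPKM in HFD, 2580.3 in HFD-IF library 0 and 1686 in library 1, with overlap and adjusted p = 0.476. Without HFD-IF library 1, 0 members of the list passed, and Fasn was at -3.04 (adjusted p = 0.156) and Thrsp at -3.21 (adjusted p = 0.18). Without HFD-IF library 0 the list median was -1.25, by arithmetic that of library 1. Of the 7 calls, 2 stayed without HFD library 2 (Fasn and Thrsp) and 3 without HFD library 3 (Fasn, Thrsp and Gpam). A fit of the 6 livers alone and one with weighted libraries called 0 members.

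**Figure D1:**
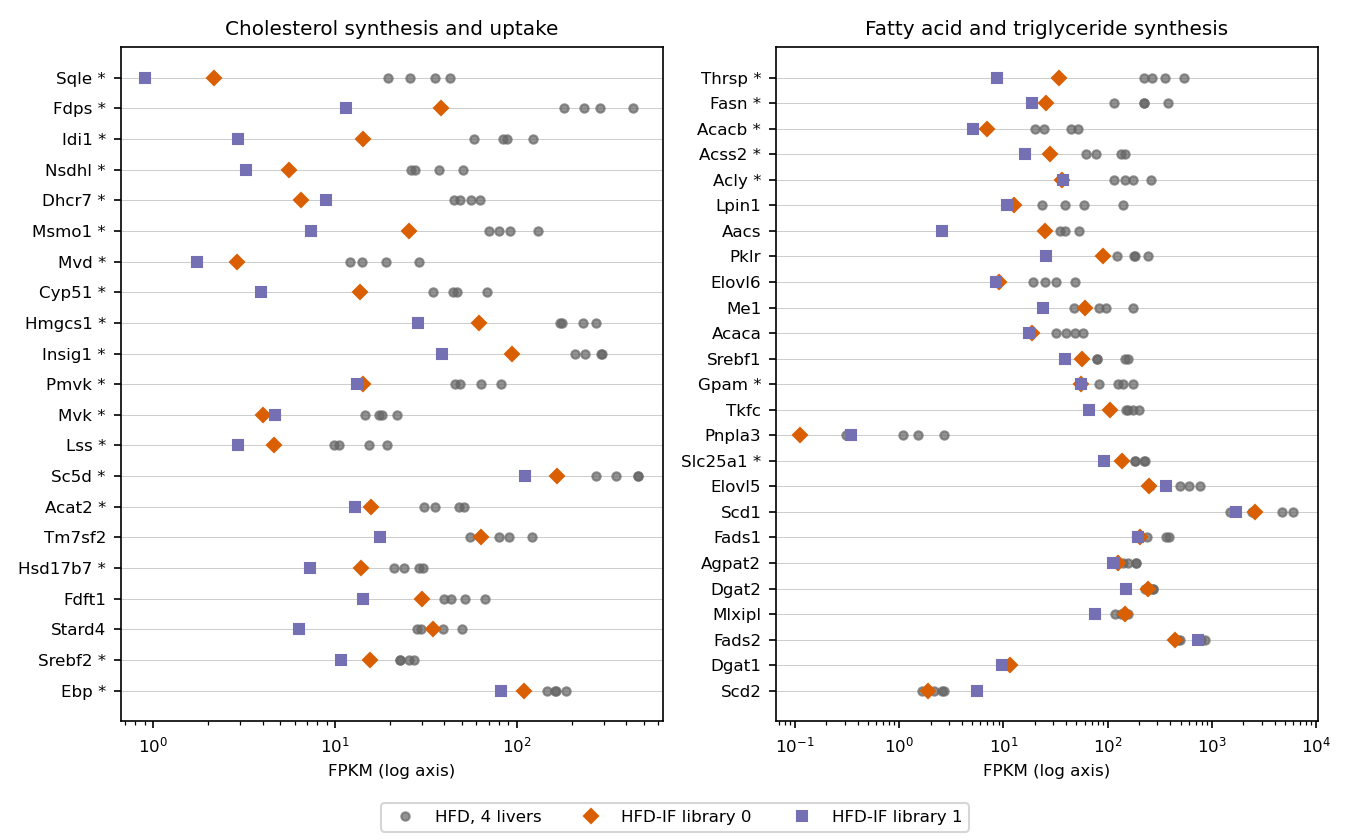
FPKM of 21 genes of cholesterol synthesis and uptake (left) and the 25 of fatty acid and triglyceride synthesis (right) in every liver, on log axes. Grey circles are the 4 HFD livers, orange diamonds HFD-IF library 0 and violet squares HFD-IF library 1, and an asterisk marks adjusted p at most 0.05 (18 genes on the left, 7 on the right). Sqle lies at 2.17 and 0.905 FPKM in the fasted livers, left of all HFD livers, while the fasted Scd1 values lie among those of HFD.

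Genes of fatty acid oxidation and other PPARα targets were mostly higher, but none passed. Of 48 members, 0 were called by limma, 23 were higher and 1 lower at an unadjusted p under 0.05, and 41 had a higher mean in HFD-IF. Both fasted livers were above every HFD liver for 25 members, and the median log2 difference was 0.41, close in library 0 (0.45) and library 1 (0.35). Hadhb, a subunit of the mitochondrial trifunctional protein of beta-oxidation, measured 93.9, 93.9, 107 and 105 FPKM in HFD, 154 in HFD-IF library 0 and 163 in library 1. The groups did not overlap and the fasted pair was close together, with a log2 difference of 0.66 ± 0.15 (adjusted p = 0.052). Ehhadh, its peroxisomal counterpart, measured 95.2, 67.0, 104 and 125 FPKM in HFD, 162 in HFD-IF library 0 and 422 in library 1. Library 1 was far higher than library 0 here, and the log2 difference was 1.45 ± 0.37 (adjusted p = 0.0725).

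Acot1 and Acot2 release fatty acids from coenzyme A in the cytosol and in mitochondria. Acot1 measured 12.6, 14.1, 20.4 and 17.4 FPKM in HFD, 53.1 in HFD-IF library 0 and 85.0 in library 1. Acot2 measured 5.39, 1.88, 4.42 and 7.78 FPKM in HFD, 13.0 in HFD-IF library 0 and 62.3 in library 1. Both genes were above all HFD livers in both fasted livers, at adjusted p = 0.0997 and 0.0647, and because these paralogs are near-identical their fragments may have been split between them. Acaa1a, a peroxisomal thiolase, measured 83.0, 92.1, 97.8 and 99.2 FPKM in HFD, 145 in HFD-IF library 0 and 135 in library 1, with no overlap and a log2 difference of 0.59 ± 0.16 (adjusted p = 0.0931). Cpt1a, the carnitine transferase that admits fatty acids to mitochondria, measured 184, 169.9, 191 and 202 FPKM in HFD, 221 in HFD-IF library 0 and 364 in library 1. Library 0 was just above the HFD livers and library 1 well above, with a log2 difference of 0.60 ± 0.23 (adjusted p = 0.189). Pdk4, a kinase that turns off pyruvate oxidation, had no such pattern, with 7.86, 2.86, 5.54 and 5.24 FPKM in HFD, 4.01 in HFD-IF library 0 and 9.38 in library 1 (adjusted p = 0.87). With 1 HFD-IF liver left out, the list median is by arithmetic that of the other, 0.35 without library 0 and 0.45 without library 1.

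Ketone body genes gave 0 calls of 7, with 1 higher at an unadjusted p under 0.05. Among 22 genes of lipid droplets and lipolysis, 1 rose. This was Pnpla2, the first lipase of stored triglyceride, at 27.9, 26.3, 29.5 and 34.2 FPKM in HFD, 45.5 in HFD-IF library 0 and 64.0 in library 1. Both fasted livers were above all HFD livers, with a log2 difference of 0.86 ± 0.17 (adjusted p = 0.0234), and without HFD-IF library 1 it was at 0.62 (adjusted p = 0.207). Hsd17b13, a lipid droplet enzyme, measured 302, 224, 315 and 334 FPKM in HFD, 387 in HFD-IF library 0 and 647 in library 1, with no overlap and adjusted p = 0.0607.

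Among 27 genes of protein folding in the endoplasmic reticulum, 4 fell and 0 rose, 25 had a lower mean and 16 lay below every HFD liver in both fasted livers, with a median log2 difference of -0.79 (-0.51 in library 0 and -0.95 in library 1). Calr, a calcium-binding chaperone of glycoproteins, measured 618, 842, 707 and 567 FPKM in HFD, 339 in HFD-IF library 0 and 210.2 in library 1. Pdia6, a disulfide isomerase, measured 125, 182, 161 and 125 FPKM in HFD, 72.2 in HFD-IF library 0 and 47.8 in library 1. Both genes were lower in each fasted liver than in any HFD liver, with log2 differences of -1.34 ± 0.23 (adjusted p = 0.0156) and -1.30 ± 0.23 (adjusted p = 0.0185). Pdia3, another disulfide isomerase, and Sec61b, part of the channel through which new proteins enter, also fell, with log2 differences of -0.99 ± 0.19 (adjusted p = 0.0237) and -0.85 ± 0.18 (adjusted p = 0.0326). Pdia3 was at -0.7648 in library 0 and -1.223 in library 1, and Sec61b at -0.9267 and -0.7749. Hspa5, the chief chaperone of the compartment, measured 419.6, 892, 683 and 410.1 FPKM in HFD, 331 in HFD-IF library 0 and 208 in library 1. Its HFD livers ranged widely among themselves, and although the groups did not overlap the adjusted p was 0.13. Without HFD-IF library 1, 0 members passed and Calr was at -0.99 (adjusted p = 0.16). The fit of 6 livers and that with weighted libraries also called 0. Without HFD-IF library 0 the list median was -0.95, by arithmetic that of library 1.

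Among 25 genes of glycolysis, glycogen and insulin signalling, 3 fell and 1 rose. Ppp1r3b, which directs a phosphatase to glycogen (chr8:35375739-35388139, + strand, GRCm38), measured 146, 157, 94.3 and 152 FPKM in HFD, 35.2 in HFD-IF library 0 and 70.7 in library 1. It fell, with a log2 difference of -1.41 ± 0.26 (adjusted p = 0.0185), and was the only member called without HFD-IF library 1, at -1.91 (adjusted p = 0.018). Pygl, the liver glycogen phosphorylase, measured 278, 271, 244 and 264 FPKM in HFD, 181 in HFD-IF library 0 and 113 in library 1, a log2 difference of -0.88 ± 0.20 (adjusted p = 0.0461).

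Igfbp2, a secreted binder of insulin-like growth factors (chr1:72824503-72852474, + strand, GRCm38), rose. It measured 185, 168, 208 and 170.3 FPKM in HFD, 369 in HFD-IF library 0 and 1052 in library 1. Both fasted livers were above all HFD livers and library 1 was far above library 0, with a log2 difference of 1.77 ± 0.31 (adjusted p = 0.0185) that was 1.01 (adjusted p = 0.128) without library 1. Igfbp1, a relative induced by fasting, measured 66.3, 84.9, 28.5 and 46.6 FPKM in HFD, 20.4 in HFD-IF library 0 and 197 in library 1, so library 0 was below every HFD liver and library 1 above every one. Pklr, the liver pyruvate kinase, measured 184, 122, 179.7 and 243 FPKM in HFD, 89.3 in HFD-IF library 0 and 25.9 in library 1, with no overlap and adjusted p = 0.0746. Of 19 gluconeogenic genes 0 passed, with 1 higher and 3 lower at an unadjusted p under 0.05. G6pc, which releases free glucose, measured 393, 223, 149 and 239 FPKM in HFD, 117 in HFD-IF library 0 and 139 in library 1 (adjusted p = 0.388), with both fasted livers below all HFD livers.

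Amino acid breakdown and the urea cycle had 3 falls among 32 members and a median log2 difference of -0.20. Kynu, an enzyme of tryptophan breakdown, measured 109, 135, 109 and 111 FPKM in HFD, 79.3 in HFD-IF library 0 and 77.0 in library 1. Gldc, of the glycine cleavage system, measured 109.8, 111, 93.1 and 98.2 FPKM in HFD, 70.0 in HFD-IF library 0 and 73.8 in library 1. Haao, also of tryptophan breakdown, measured 375, 412, 390.1 and 370.1 FPKM in HFD, 290.2 in HFD-IF library 0 and 122 in library 1. All 3 were below every HFD liver in both fasted livers, and Haao was much lower in library 1. The log2 differences were -0.56 ± 0.11 (adjusted p = 0.0303), -0.51 ± 0.11 (adjusted p = 0.0415) and -1.03 ± 0.23 (adjusted p = 0.0469), and none of the 3 passed without HFD-IF library 1. Aldh1l1, a folate enzyme, was the 1 call among 18 genes of methionine, choline and one-carbon metabolism. It measured 505, 578, 507 and 509.7 FPKM in HFD, 334 in HFD-IF library 0 and 267 in library 1, a log2 difference of -0.81 ± 0.15 (adjusted p = 0.0185) with no overlap, and -0.65 (adjusted p = 0.167) without HFD-IF library 1.

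The clock list gave 2 rises among 20 members. Usp2, a deubiquitinase with a daily rhythm in liver, measured 3.02, 1.57, 3.44 and 6.32 FPKM in HFD, 12.8 in HFD-IF library 0 and 14.8 in library 1. Tspan4, a membrane tetraspanin, measured 11.6, 19.1, 13.5 and 14.3 FPKM in HFD, 33.3 in HFD-IF library 0 and 28.2 in library 1. The fasted pair was close together and above all HFD livers for both genes, with log2 differences of 1.79 ± 0.29 (adjusted p = 0.0145) and 1.04 ± 0.18 (adjusted p = 0.0161). Without HFD-IF library 1 they were at 1.69 (adjusted p = 0.112) and 1.16 (adjusted p = 0.0692). Dbp, a rhythmic output factor, measured 6.98, 0.552, 28.1 and 25.3 FPKM in HFD, 57.0 in HFD-IF library 0 and 26.0 in library 1, and Arntl, a core activator of the clock, measured 11.9, 15.0, 6.34 and 3.47 FPKM in HFD, 2.72 in HFD-IF library 0 and 7.89 in library 1. Livers within HFD differed widely for both genes, and neither passed (adjusted p = 0.336 and 0.491). Per2, a core repressor, measured 6.30, 4.96, 6.28 and 8.60 FPKM in HFD, 9.26 in HFD-IF library 0 and 10.2 in library 1 (adjusted p = 0.431).

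Other genes with large rises came from several roles. Por, the reductase that feeds electrons to microsomal cytochromes P450, measured 61.7, 82.5, 98.3 and 114 FPKM in HFD, 246 in HFD-IF library 0 and 265 in library 1. It was above all HFD livers in both fasted livers by a wide margin, with a log2 difference of 1.54 ± 0.32 (adjusted p = 0.0313). Slc27a1, a fatty acid transporter, measured 4.20, 2.56, 3.79 and 3.25 FPKM in HFD, 9.40 in HFD-IF library 0 and 10.4 in library 1, a log2 difference of 1.31 ± 0.25 (adjusted p = 0.0217). Wee1, a kinase that delays mitosis, measured 1.67, 0.630, 3.28 and 2.51 FPKM in HFD, 7.54 in HFD-IF library 0 and 5.04 in library 1, a log2 difference of 1.34 ± 0.30 (adjusted p = 0.0444). For these 3 genes library 0 and library 1 were close to each other. Myc, a growth-promoting transcription factor, measured 2.27, 3.29, 1.18 and 1.37 FPKM in HFD, 12.7 in HFD-IF library 0 and 11.0 in library 1. Its log2 difference of 2.14 ± 0.47 (adjusted p = 0.0416) came from low levels, and both fasted livers were well above all HFD livers.

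For a further group of called genes library 1 was much higher than library 0. Tuba8, a tubulin, measured 0.312, 0.150, 0.336 and 0.495 FPKM in HFD, 2.13 in HFD-IF library 0 and 8.63 in library 1. Uap1l1, related to an enzyme of amino sugar synthesis, measured 3.34, 1.74, 2.86 and 2.32 FPKM in HFD, 6.67 in HFD-IF library 0 and 24.5 in library 1. Abhd2, a lipase, measured 37.1, 38.6, 50.8 and 58.8 FPKM in HFD, 73.4 in HFD-IF library 0 and 202 in library 1. In all 3 even the lower fasted liver exceeded every HFD liver, with adjusted p = 0.0156, 0.0377 and 0.0472. Btg3, an antiproliferative gene, measured 1.10, 0.000177, 0.280 and 0.000194 FPKM in HFD, 2.90 in HFD-IF library 0 and 6.70 in library 1 (log2 difference 2.10 ± 0.40, adjusted p = 0.0209). Tuba8 and Btg3 were low in HFD and reached the filter mean only through the fasted livers in which they were higher. Their rises were thus partly set by that filter. Rbm3, an RNA-binding protein induced by cold, was the 1 call in the list of 17 cytosolic chaperones and related genes, with a log2 difference of 1.09 ± 0.19 (adjusted p = 0.0163). Its difference was 0.8727 in library 0 and 1.316 in library 1. Among the falls, Aqp8, a water and peroxide channel, measured 156, 83.7, 191 and 219.9 FPKM in HFD, 28.4 in HFD-IF library 0 and 21.9 in library 1, a log2 difference of -2.57 ± 0.43 (adjusted p = 0.0145). Abcb11, the bile salt export pump, was the 1 call among 22 bile acid genes, with 221, 216, 219.8 and 215 FPKM in HFD, 166 in HFD-IF library 0 and 137 in library 1 (log2 difference -0.53 ± 0.12, adjusted p = 0.0436). None of the genes in this and the preceding paragraph was called without HFD-IF library 1, and Wee1 was at 1.09 (adjusted p = 0.075) without HFD-IF library 0.

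Beyond the test, and counted on the log2(FPKM + 1) scale, 8 genes were at least 2-fold above the highest HFD liver and 28 at least 2-fold below the lowest in both fasted livers. The 8, listed after their values were seen, were Cyp4a14, Cyp4a10, Gm15441, Myc, Tuba8, Acot1, Por and Slc27a1. Cyp4a10, a fatty acid omega-hydroxylase and PPARα target, measured 109, 41.8, 155 and 224 FPKM in HFD, 840.2 in HFD-IF library 0 and 870.1 in library 1, yet did not pass (adjusted p = 0.119). Cyp4a14, its close relative, measured 109, 16.4, 112 and 267 FPKM in HFD, 1001 in HFD-IF library 0 and 1225 in library 1 (adjusted p = 0.135). HFD livers alone ranged several-fold for both of these genes, which share sequence. Of the 28 lower genes, 13 were members of the cholesterol list.

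Of 28 genes of the citric acid cycle and succinate metabolism, 1 rose and 1 fell. Idh2, the mitochondrial isocitrate dehydrogenase that uses NADP, measured 46.4, 32.7, 42.8 and 53.2 FPKM in HFD, 66.8 in HFD-IF library 0 and 88.4 in library 1. Idh1, its cytosolic counterpart, measured 226, 242, 259.7 and 252 FPKM in HFD, 181 in HFD-IF library 0 and 106 in library 1. Both pairs of fasted livers lay outside the HFD range, on opposite sides, with log2 differences of 0.82 ± 0.18 (adjusted p = 0.0402) for Idh2 and -0.82 ± 0.18 (adjusted p = 0.0436) for Idh1. Neither passed without HFD-IF library 1, at 0.62 (adjusted p = 0.288) and -0.43 (adjusted p = 0.323). Sucnr1, the succinate receptor (chr3:60081869-60087566, + strand, GRCm38), measured 40.4, 30.6, 48.7 and 39.3 FPKM in HFD, 25.7 in HFD-IF library 0 and 8.27 in library 1. Both fasted livers were below all HFD livers and library 1 was the lowest by far, but the gene did not pass, with a log2 difference of -1.35 ± 0.34 (adjusted p = 0.067).

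The subunits of succinate dehydrogenase, which oxidises succinate in the respiratory chain, did not pass. Sdha measured 279, 268, 289 and 283 FPKM in HFD, 292 in HFD-IF library 0 and 178 in library 1. Sdhb measured 171, 174, 163 and 157 FPKM in HFD, 148 in HFD-IF library 0 and 117 in library 1. Library 1 was below all HFD livers for both, while library 0 was above them for Sdha and below them for Sdhb. Sdhc measured 181, 179, 166 and 179 FPKM in HFD, 167 in HFD-IF library 0 and 146 in library 1. Sdhd measured 143, 136, 149 and 158 FPKM in HFD, 149 in HFD-IF library 0 and 135 in library 1. Library 0 lay inside the HFD range for Sdhc and Sdhd, and the adjusted p-values of Sdha to Sdhd were 0.332, 0.177, 0.349 and 0.876. Oxidative phosphorylation as a list had 0 calls of 71, with 20 lower and 0 higher at an unadjusted p under 0.05. Its median log2 difference was -0.22, and HFD-IF library 1 was below all HFD livers for 65 members (34.4% of all genes tested) and library 0 for 22 (25.5% of all genes tested).

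**Figure D2:**
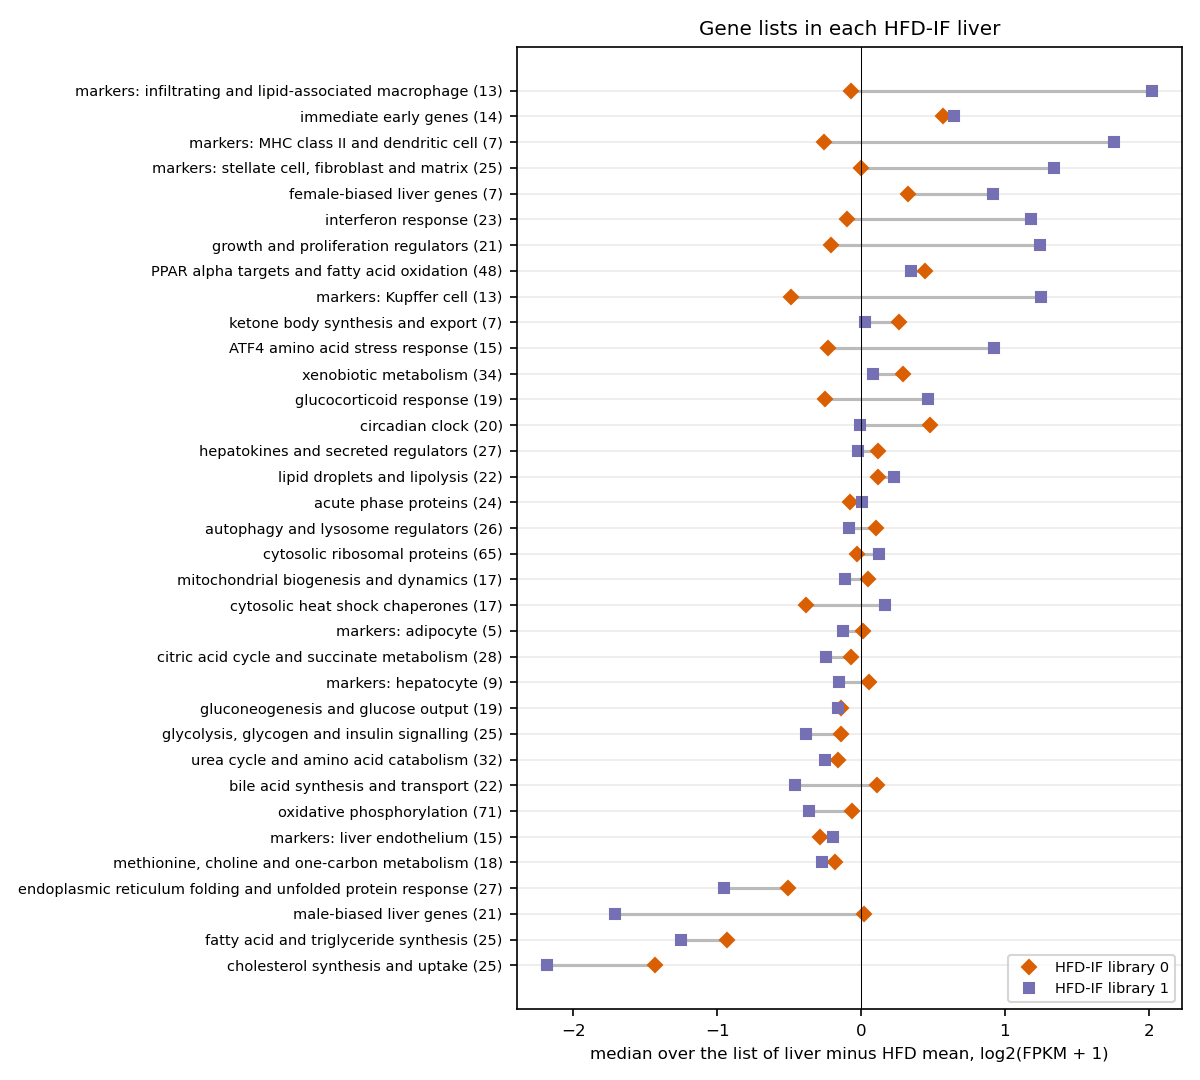
Median log2 difference from the mean of the 4 HFD livers for each gene list with at least 5 members kept by the filter. HFD-IF library 0 and HFD-IF library 1 are shown separately. The medians of cholesterol synthesis lie at -1.43 and -2.18 on the same side of 0, whereas those of infiltrating macrophage markers lie at -0.07 and 2.02.

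The fasted livers were also set against HFD 1 at a time. At any distance, library 0 was above all HFD livers in 25.8% and below them in 25.5% of all genes tested, and library 1 in 27.5% and 34.4%. On the log2(FPKM + 1) scale, HFD-IF library 1 was at least 2-fold above every HFD liver for 325 genes and 2-fold below for 174. HFD-IF library 0 was so for 33 and 50 genes. For 166 of the genes high in library 1 and 52 of those low in it, library 0 lay within the HFD range. The reverse held for 10 and 9 genes. Single genes that separate the pair are described with no test, since most were chosen by the difference between the fasted livers.

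The highest in library 1 over library 0 included secreted, stress and growth genes. Lcn2, an iron-scavenging acute phase protein, measured 17.2, 31.4, 2.33 and 5.17 FPKM in HFD, 4.54 in HFD-IF library 0 and 141 in library 1. Cdkn1a, the cell cycle inhibitor p21, measured 10.2, 22.9, 2.31 and 8.80 FPKM in HFD, 0.556 in HFD-IF library 0 and 49.7 in library 1. Ly6d, a surface protein, measured 2.37, 1.17, 1.54 and 1.93 FPKM in HFD, 2.98 in HFD-IF library 0 and 111 in library 1. Library 0 was near or below the HFD livers for all 3 but Ly6d, where it was slightly above them, and library 1 exceeded every HFD liver. Apoa4, an apolipoprotein that rises with liver fat, measured 437, 154, 418 and 414 FPKM in HFD, 414 in HFD-IF library 0 and 4195 in library 1. Ccnd1, which drives cells into division, measured 7.63, 7.45, 8.58 and 12.9 FPKM in HFD, 7.17 in HFD-IF library 0 and 72.5 in library 1. Fgf21, a fasting hormone of the liver (chr7:45613886-45615490, - strand, GRCm38), measured 5.12, 8.55, 12.5 and 7.94 FPKM in HFD, 11.5 in HFD-IF library 0 and 106 in library 1. For these 3 genes library 0 was within the HFD range or just below it, and library 1 was several-fold higher than any HFD liver.

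The lowest in library 1 included genes that male livers express more strongly. Car3, a carbonic anhydrase, measured 2514, 2108, 2743 and 2267 FPKM in HFD, 2417 in HFD-IF library 0 and 337 in library 1. Mup3, a major urinary protein whose paralogs share sequence, measured 9946, 11222, 10393 and 8299 FPKM in HFD, 9523 in HFD-IF library 0 and 1112 in library 1. Elovl3, a fatty acid elongase with a male bias, measured 259, 427, 139 and 140.5 FPKM in HFD, 78.0 in HFD-IF library 0 and 19.5 in library 1. Library 0 was within the HFD range for Car3 and Mup3 and below it for Elovl3, and library 1 was the lowest liver for all 3. Of 21 male-biased genes, 0 passed and 7 were lower at an unadjusted p under 0.05. With fasting on chow, 12 of the 21 fell and 0 rose (limma, CC-IF against CC), with a median log2 difference of -1.50. The median log2 difference of this list was 0.02 in library 0 and -1.71 in library 1, and 2 members in library 0 and 16 in library 1 were below all HFD livers, where all genes gave 25.5% and 34.4%.

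**Figure D3:**
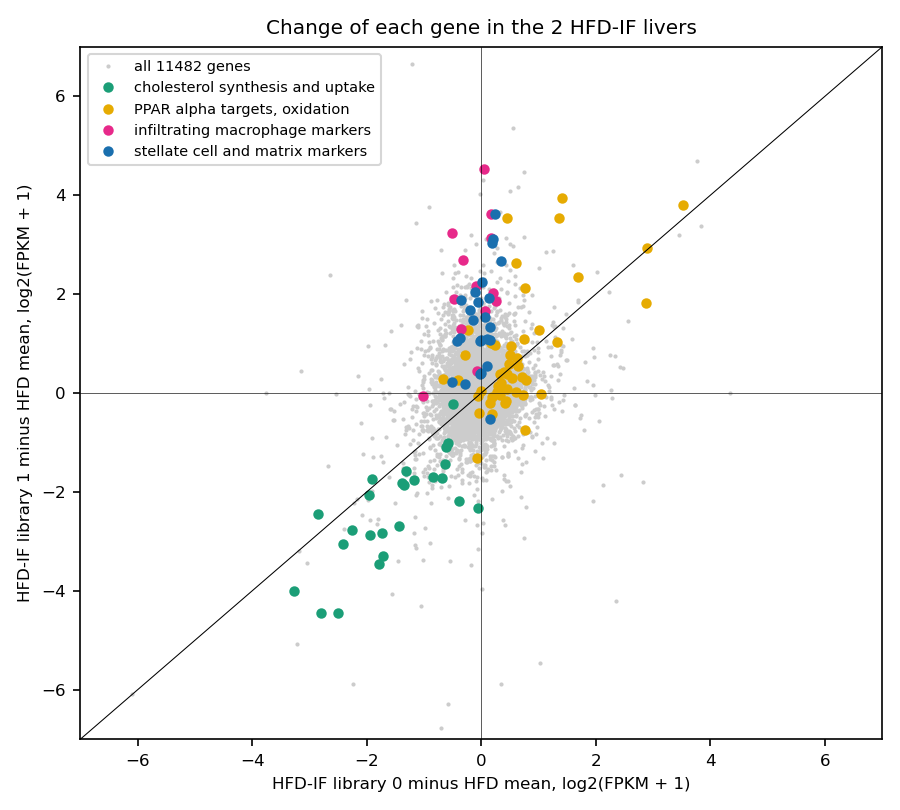
Log2 difference from the HFD mean in HFD-IF library 0 (horizontal) against that in HFD-IF library 1 (vertical), on the log2(FPKM + 1) scale, with 1 point a gene for the 11482 genes. Axes end at ±7 and 4 genes lie outside them; genes of cholesterol synthesis (green) sit low on both axes, while markers of infiltrating macrophages (pink) and of stellate cells and matrix (blue) lie near 0 for library 0 and mostly above 0 for library 1.

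Markers of other cell types also separated the pair. In bulk tissue, fewer cells of a type and less RNA per cell cannot be told apart. Sums here cover all list members measured, also those below the filter. The 14 markers of Kupffer cells, resident macrophages, summed to 203 to 322 FPKM in HFD, 213 in HFD-IF library 0 and 628 in library 1. The 14 markers of infiltrating and lipid-associated macrophages summed to 94.9 to 112 FPKM in HFD, 81.2 in library 0 and 389 in library 1. Library 1 was above every HFD liver for 12 of the 13 genes kept by the filter in each of these lists. Library 0 was below every HFD liver for 10 of the Kupffer markers kept. Over all genes tested these shares were 27.5% above in library 1 and 25.5% below in library 0. The filter averages over both fasted livers, so a marker low in HFD can enter through library 1 alone, as Gpnmb did. The counts and medians of library 1 in this and the other marker lists are therefore partly set by the filter. Gpnmb, a marker of lipid-laden macrophages, measured 0 to 0.282 FPKM in HFD, 0.160 in HFD-IF library 0 and 25.2 in library 1. Cd68, a general macrophage marker, measured 9.38, 7.39, 6.50 and 7.84 FPKM in HFD, 5.52 in HFD-IF library 0 and 38.7 in library 1. Cd74, the invariant chain of MHC class II, measured 55.8, 57.5, 50.8 and 60.5 FPKM in HFD, 43.4 in HFD-IF library 0 and 192 in library 1.

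The 9 MHC class II and dendritic markers summed to 101 to 121 FPKM in HFD, 88.2 in library 0 and 437 in library 1. All 7 that passed the filter were highest in library 1. The 27 markers of stellate cells, fibroblasts and matrix summed to 740 to 878 FPKM in HFD, 862 in library 0 and 1209 in library 1. Of the 25 that passed the filter, 23 were above every HFD liver in library 1. Col3a1, a fibrillar collagen, measured 17.9, 6.28, 10.7 and 13.6 FPKM in HFD, 13.3 in HFD-IF library 0 and 107 in library 1. The 24 interferon response genes summed to 286 to 441 FPKM in HFD, 274 in library 0 and 570 in library 1. The 15 endothelial markers summed to 221 to 294 FPKM in HFD, 230.4 in library 0 and 245 in library 1, both inside the HFD range. No T, B or NK cell marker passed the filter. Of 9 adipocyte markers, Adipoq, Lep, Plin1 and Retn were at 0 in all 6 livers and 5 passed the filter, Cfd, Cidec, Fabp4, Car3 and Lipe. The whole list summed to 2137 to 2784 FPKM in HFD, 2457 in library 0 and 416 in library 1, mostly from Car3. Of 6 neuronal markers, Gad1, Slc17a7 and Snap25 were at 0 in all 6 livers, and Syt1 passed the filter, with sums of 1.42 to 2.76 FPKM in HFD, 3.19 in library 0 and 1.75 in library 1.

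In each of these marker lists limma called 0 genes over both fasted livers. At an unadjusted p under 0.05, 1 Kupffer marker, 7 markers of infiltrating macrophages, 15 of matrix, 0 of MHC class II and 10 interferon genes were higher, and 6 endothelial markers were lower. In the same order, the list medians of the log2 difference from the HFD mean were 1.25, 2.02, 1.34, 1.76, 1.18 and -0.20 in library 1. In library 0 they were -0.49, -0.07, 0.004, -0.26, -0.10 and -0.29. Over all genes tested the medians were -0.04 in library 1 and -0.002 in library 0. Library 1 therefore carried more immune and matrix RNA, a lower hepatocyte marker sum, a higher relative depth and less male-biased RNA together. Male-biased RNA was also lower in CC-IF than in CC. The part of these features in the changes described above was not tested.

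**Figure D4:**
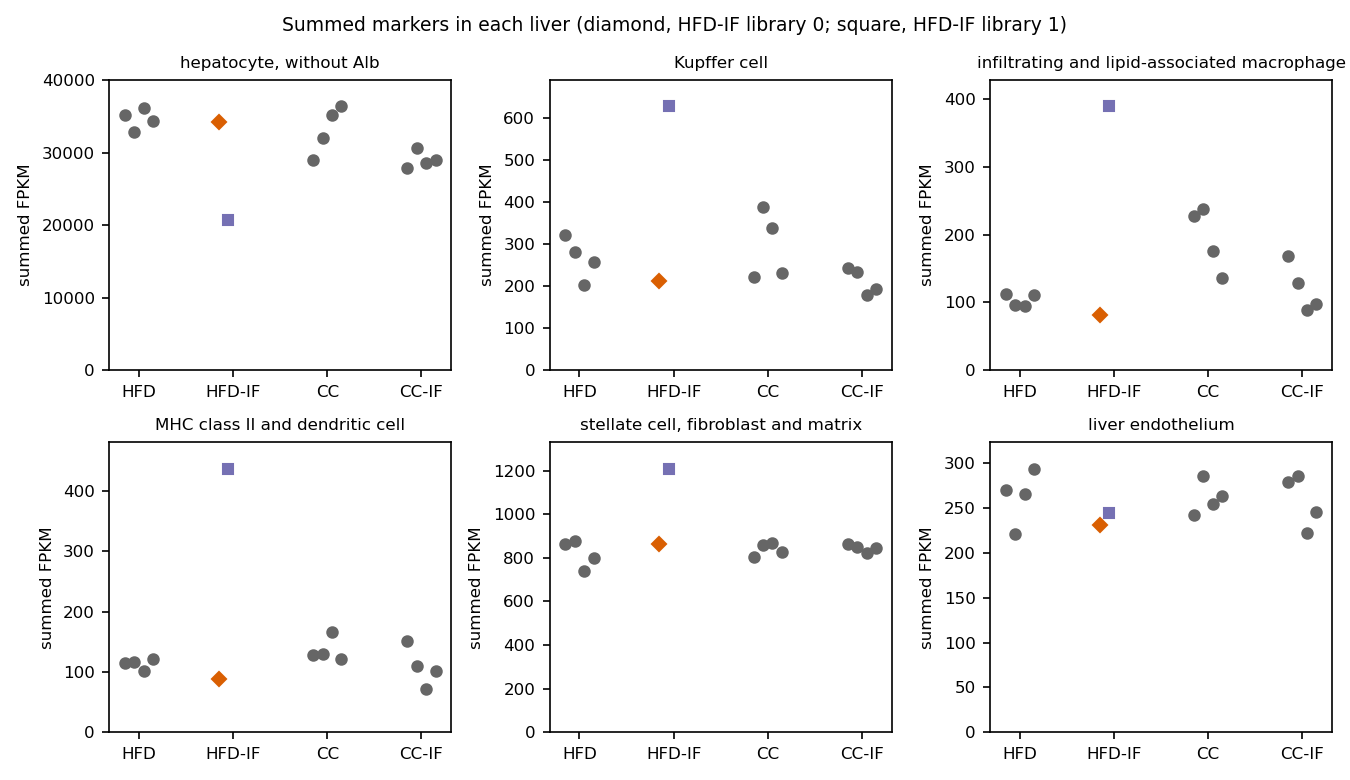
Summed FPKM of the marker lists in each liver of the 4 regimens, with 1 point a library. HFD-IF library 1 lies at 628 for Kupffer cell markers and 389 for infiltrating macrophage markers, above all other livers, while HFD-IF library 0 lies at 213 and 81.2.

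Lists of stress and hormone response gave few calls. The 19 glucocorticoid response genes, 14 immediate early genes and 15 genes of the ATF4 amino acid stress response had 0 calls each. At an unadjusted p under 0.05, 4, 5 and 2 of them were higher and 2, 0 and 1 lower. Fos and Jun, immediate early factors, were above all HFD livers in both fasted livers, and neither passed. Fos measured 0.684 to 1.80 FPKM in HFD, 3.73 in HFD-IF library 0 and 2.43 in library 1. Jun measured 11.1 to 21.8 FPKM in HFD, 28.3 in HFD-IF library 0 and 34.9 in library 1. Mt1, a metal-binding protein induced by glucocorticoids and zinc, measured 11.5, 20.4, 11.5 and 17.0 FPKM in HFD, 25.2 in HFD-IF library 0 and 139 in library 1. Atf3, a stress-induced factor, measured 0.922, 0.733, 1.21 and 0.733 FPKM in HFD, 1.55 in HFD-IF library 0 and 15.6 in library 1. Both of these genes were highest in library 1. Acute phase proteins (24), cytosolic ribosomal proteins (65) and autophagy and lysosome regulators (26) also gave 0 calls, with 1, 3 and 4 higher and 3, 0 and 0 lower at an unadjusted p under 0.05. Esrra, a nuclear receptor for mitochondrial genes, was the 1 call among 17 genes of mitochondrial biogenesis. It measured 11.0, 12.2, 11.2 and 11.0 FPKM in HFD, 16.2 in HFD-IF library 0 and 15.2 in library 1 (log2 difference 0.43 ± 0.10, adjusted p = 0.0436), and was called neither without HFD-IF library 0 nor without HFD-IF library 1.

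Fasting on chow gave a contrast that shares no liver with the high-fat one. Both contrasts come from the same fit and share its spread per gene, so their calls are not independent. CC-IF differed from CC in 2736 genes, 23.8% of those tested, with 4 livers on each side. Of the 167 genes called on high-fat diet, 157 differed in the same direction on chow. The share of all genes tested that did so was not counted. Of the 167, 122 were also called the same way on chow and 2 the opposite way. The 122 are 73.1% of the genes called on high-fat diet and 4.46% of those called on chow. On chow, 18 of the 25 cholesterol genes fell and 1 rose, with a median log2 difference of -1.10. Of the 48 PPARα and oxidation genes 36 rose and 2 fell on chow (median 0.85), and of the 27 folding genes 22 fell and 0 rose (median -1.06).

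The difference between these fasting effects was tested as an interaction, the change on high-fat diet minus that on chow. It passed in 145 genes, 1.26% of those tested, 15 with a positive and 130 with a negative value. By limma 0 of the 25 cholesterol genes passed it (11 at an unadjusted p under 0.05), 0 of the 27 folding genes (8) and 1 of the 48 oxidation genes (23), where 18.2% of all genes had an unadjusted p under 0.05. Without HFD-IF library 1 it passed in 29 genes and without HFD-IF library 0 in 1816. Genes of nitrogen and one-carbon metabolism stood among those that differed, with 8 of 32 amino acid and urea cycle genes and 5 of 18 one-carbon genes, all with a negative value.

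Arg1, which makes urea from arginine, measured 948, 997, 929 and 1061 FPKM in HFD, 706 in HFD-IF library 0 and 803 in library 1. On chow it measured 636 to 763 FPKM in CC and 1037 to 1182 in CC-IF. Fasted livers were thus below the unfasted on high-fat diet and above them on chow, and the interaction was -1.05 ± 0.15 (SE; adjusted p = 0.00897). Prodh, which starts proline breakdown, measured 89.4, 87.8, 68.3 and 72.6 FPKM in HFD, 63.8 in HFD-IF library 0 and 41.9 in library 1, and 41.3 to 50.7 in CC against 76.8 to 101 in CC-IF. The directions were again opposite, with an interaction of -1.50 ± 0.22 (adjusted p = 0.0113). On high-fat diet alone, however, the fall passed for neither Arg1 nor Prodh. Usp2 rose on both diets, on chow from 1.22 to 2.31 FPKM in CC to 49.1 to 61.7 in CC-IF. Its interaction was -2.55 ± 0.37 (adjusted p = 0.0113). Without HFD-IF library 1 these 3 interactions were -1.15 (adjusted p = 0.0227), -1.21 (adjusted p = 0.037) and -2.64 (adjusted p = 0.0342).

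Mat1a, which makes the methyl donor S-adenosylmethionine, measured 1034, 1034, 1124 and 1255 FPKM in HFD, 1644 in HFD-IF library 0 and 1657 in library 1, and 488 to 790.3 in CC against 1662 to 2075 in CC-IF. Fasted livers were above unfasted ones on both diets, further so on chow, with an interaction of -1.11 ± 0.22 (adjusted p = 0.0351). Ciart, a clock repressor, measured 0.487, 0.390, 1.46 and 2.54 FPKM in HFD, 3.09 in HFD-IF library 0 and 2.33 in library 1, and 0.127 to 0.510 in CC against 8.54 to 13.4 in CC-IF, with an interaction of -2.34 ± 0.41 (adjusted p = 0.021). Fgf21 went the other way, from 18.4 to 33.3 FPKM in CC down to 3.51 to 9.78 in CC-IF. Its interaction of 3.90 ± 0.81 (adjusted p = 0.039) drew on the 106 FPKM of HFD-IF library 1 and was 2.35 (adjusted p = 0.0985) without it. Mat1a and Ciart did not pass without that library either, at -1.11 (adjusted p = 0.0985) and -2.19 (adjusted p = 0.089).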

How the data were processed

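The authors deposited 1 table of FPKM values, and per the labels' protocols the RNA came from about 20 mg of tissue, with selection of polyadenylated transcripts, stranded TruSeq libraries and paired reads of 125 nt. Per the submitters' processing notes, the tools were Trimmomatic 0.39, FastQC 0.11.9, Bowtie2 2.3.5.1 and TopHat2 2.1.1, and the genome build was GRCm38 (mm10). Which program computed FPKM, and how it scaled libraries, is not given in the sources used here; depth is known only as the relative steps of low values. All 14 liver libraries entered 1 model in limma 3.58.1 (R 4.3.3) on log2(FPKM + 1), with group as the only term, a trend of variance with intensity, and two-sided p-values adjusted after Benjamini and Hochberg over 11482 genes at 0.05. Of 11537 genes with a mean of at least 1 FPKM, 55 Snora, Snord and Mir genes were left out. Errors after ± are standard errors. The procedure was tested on simulated data in which every library had the spread of the HFD livers. That test does not cover the wider spread between the 2 HFD-IF livers. Plots were drawn with matplotlib 3.10.9, and tables made with numpy 2.4.6 and pandas 2.3.3 under Python 3.11.15. Gene coordinates are those of the GRCm38 annotation, matched by symbol.

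The members and gene lists were chosen with earlier results of these data known. Named genes are the up to 6 members of each list with the smallest p, the 10 highest and 10 lowest called changes with no overlap, the 10 highest and 10 lowest differences between the HFD-IF livers among genes of at least 5 FPKM, and a fixed set of lipid, glucose, clock and succinate genes. Genes named otherwise are marked in the text; a few genes covered by it are not reported here. Alternatives were another pseudocount, other filters, no trend, rescaled or weighted libraries, a fit of the 6 livers alone, the library number as a block, and leaving out each library.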

Additional observations from a re-analysis of the deposited data

Results flagged for a closer look

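Among the 4 HFD livers, 1 liver stood away from the other 3 by Dixon's criterion, which chance meets in about 1 in 20 groups, for 5 of the 117 genes examined, a share near that of chance. The outlying liver was the highest for Aldh1l1 at 578 FPKM, for Kynu at 134.5 and for Onecut1 at 128.1. It was the lowest for Apoa4 at 154.1 FPKM and for Sdhc at 166.5. For all 5 genes but Sdhc this was HFD library 1, and for Sdhc it was HFD library 2. Onecut1, a liver transcription factor, reached 137.7 FPKM in HFD-IF library 0 and 21.4 in library 1.

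The fasting change differed between high-fat diet and chow in 145 genes by limma's interaction test. Among the genes described, the log2 change on high-fat diet minus that on chow was -0.8661 for Aldh1l1, -1.052 for Arg1, -2.34 for Ciart, -0.6571 for Esrra, -1.106 for Mat1a, -1.504 for Prodh, -1.036 for Shmt1, a serine and folate enzyme, and -2.545 for Usp2. It was 2.28 for Btg3 and 3.9 for Fgf21. The adjusted p-values were 0.0449, 0.00897, 0.021, 0.0298, 0.0351, 0.0113, 0.047 and 0.0113, then 0.0494 and 0.039. With CC-IF library 1 left out, Arg1, Prodh and Usp2 alone of these genes passed. Aldh1l1 and Shmt1 missed the threshold whichever HFD or CC liver was left out. With weighted libraries none of these genes passed. All 10 passed without HFD-IF library 0, and without HFD-IF library 1 Arg1, Prodh and Usp2 passed.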

How the results depend on the processing

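The count of 167 genes was 12 in a fit of the 6 livers alone (10 shared), 0 with weighted libraries (802 at an unadjusted p under 0.05; both HFD-IF livers received a weight of 0.3705), and 126 to 187 under another pseudocount, filter, scaling or no trend. With 1 library left out it ran from 10 (without HFD-IF library 1) to 1703 (without HFD-IF library 0), and from 76 to 117 without 1 HFD library. The interaction count of 145 was 93 with no filter on low values, 0 with weighted libraries (1474 at an unadjusted p under 0.05), and 27 to 1816 with 1 library left out, 27 being without CC-IF library 1 and 1816 without HFD-IF library 0. All 46 called genes followed across settings missed the threshold with weighted libraries, where 0 genes passed at all, so that count does not tell genes apart. In the fit of 6 livers, 43 of the 46 missed it, and most did so without HFD-IF library 1. The sign changed for Pdk4 (-0.29 to 0.76 with 1 library left out), Sdha (-0.65 to 0.0639) and Sdhd (-0.12 to 0.0279), each without HFD-IF library 1; none of the 3 was called with both HFD-IF libraries in the fit. Same-numbered libraries did not pair (18 pairs, r from -0.299 to 0.227, 6 over 0.1). With the replicate number as a block, 144 genes passed (96 shared with the 167) and 23 in the interaction. Depth in fragments is unknown, so no counting interval is given.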
